A study of Rattus norvegicus with 6 samples.

Results

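The 10 elastic fibre and fibulin genes Eln, Fbn1, Fbn2, Mfap4, Mfap5, Fbln1, Fbln2, Fbln5, Efemp1 and Efemp2 were taken by symbol from a table of 17771 genes, and each was listed once and passed the filter on low counts. Bulk RNA sequencing was done on corneas from Wistar recipients of allografts whose donors were SD rats. One group of 3 libraries came from recipients injected intraperitoneally each day with resveratrol, a plant polyphenol, until day 7 after surgery, and the other group of 3 from recipients injected in the same way with saline, called control here. All animals in both groups were grafted, so no ungrafted cornea is part of the comparison, and age and sex are not given in the labels. Nothing in the labels ties each library to its own animal, and a p-value here therefore covers no more than the spread among these samples, which may be technical.

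Elastic fibres give tissues recoil and consist of a core of crosslinked elastin within a sheath of microfibrils, whose main component is fibrillin. Fibulins are calcium-binding glycoproteins that help to place elastin and its crosslinking enzymes on microfibrils, and microfibril-associated proteins bind fibrillin, elastin or both. Microfibrils also occur without elastin, as in the zonule that suspends the lens, and they hold growth factors of the TGF-beta family in latent form.

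Of the 10 genes, 9 had a lower mean in resveratrol corneas than in control corneas, and the median log2 fold change was -0.63, against -0.0080 over all 14213 genes tested, of which 51.2% had a lower mean. Fbln2, which encodes fibulin-2, had 0.407 times the control level and Eln, which encodes elastin, 0.521 times, while Efemp1, which encodes fibulin-3, had a higher mean (1.22 times). By the quasi-likelihood test of edgeR, 0 of the 10 passed an adjusted p of 0.05, as did 0% of all genes. Before adjustment 7 of the 10 were lower and 0 higher at p under 0.05, where 19.6% of all genes tested passed that level, 11.7% lower and 7.84% higher. The fitted mean was lower by at least 2-fold for Fbn2, Fbln2 and Mfap5, 3 of the 10, where 3.91% of all genes tested were. For 2 of these it rested on a single library, since the log2 fold change was -0.51 for Fbn2 without control 1 and -0.31 for Mfap5 without control 3. DESeq2, run as an alternative, called 3 of the 10 as lower (Eln, Fbln2 and Mfap4), where it called 6.87% of the genes with an adjusted p, 4.64% lower and 2.23% higher. These genes were chosen for their role with earlier results of the same libraries known, so the counts describe them and are no independent evidence. In bulk tissue fewer cells of a type and less RNA per cell cannot be told apart.

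**Figure D1:**
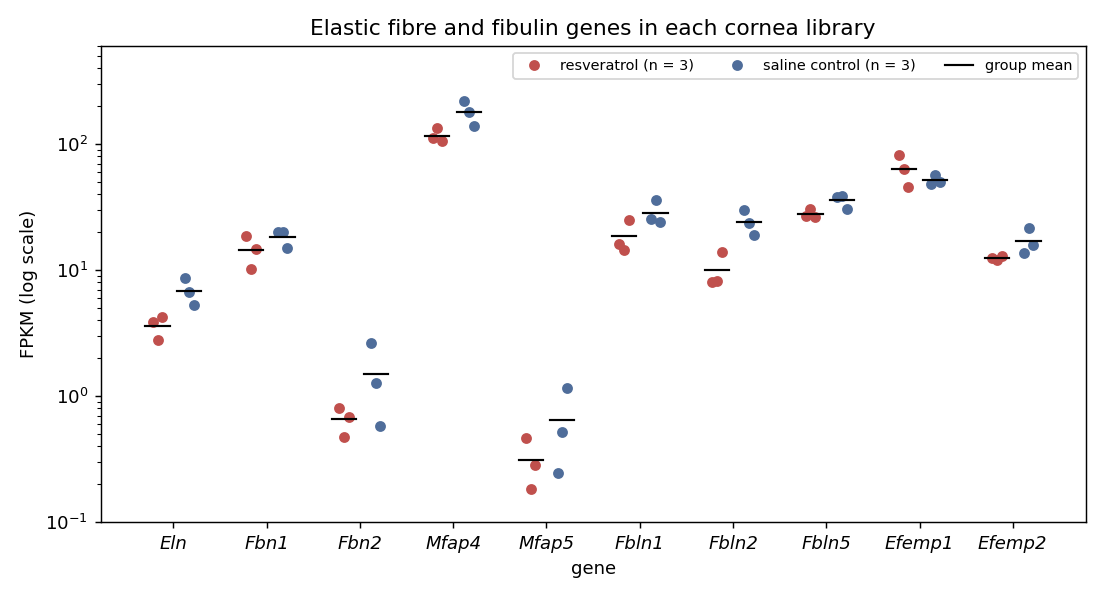
FPKM of each gene (log scale) in the 3 resveratrol libraries (left of each pair) and the 3 saline control libraries (right), with the group mean as a line. All 3 resveratrol points lie below all 3 control points for Eln, Mfap4, Fbln2 and Efemp2, whereas Efemp1 has its highest point, 82.5 FPKM, among the resveratrol libraries.

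Total counts were 35068936 to 37460756 per library, so depth was similar. On the first principal component of all genes, which held 40.0% of the variance, resveratrol libraries scored 16.8 to 37.3 and controls 1, 2 and 3 scored -38.1, -28.8 and -7.46. The defining genes of cornea were abundant in every library, and the summed level of 5 corneal epithelial markers, led by Krt12 and Krt5, was 70616 to 79920 CPM (counts scaled to library size with trimmed-mean-of-M-values factors, TMM) in resveratrol and 70791 to 79786 CPM in control. The sample descriptions end in Sep for the 2 libraries numbered 1 and in Oct for the remaining 4, without a statement of what the endings mean.

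Promoter sequences from RefSeq (rat assembly GRCr8, not the build of the deposited files) were held for 7 of the 10 genes. The 250 bases before the annotated start are shown for Fbln2, the gene with the largest fold change, and for the 3 short fibulins. These are the close relatives Fbln5, Efemp2 and Efemp1. Of them Efemp1 alone had a higher mean in resveratrol, a difference that passed in neither tool (edgeR adjusted p = 0.477, DESeq2 adjusted p = 0.448). The Fbln2 window is chr4:125261409-125261658 on the plus strand, the Fbln5 window chr6:126742707-126742956 on the minus strand, the Efemp2 window chr1:212211472-212211721 on the plus strand and the Efemp1 window chr14:106811614-106811863 on the plus strand. Each is written 5′ to 3′ on the gene's strand. Capitals mark GGGCGG, the GC box, and TGANTCA, a loose form of the AP-1 motif, on either strand. N stands for any base.
Fbln2: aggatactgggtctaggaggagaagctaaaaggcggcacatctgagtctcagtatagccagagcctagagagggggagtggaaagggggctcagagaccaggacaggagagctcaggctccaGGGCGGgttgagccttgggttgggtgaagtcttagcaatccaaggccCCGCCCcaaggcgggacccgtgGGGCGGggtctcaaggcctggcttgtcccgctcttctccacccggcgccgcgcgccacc
Fbln5: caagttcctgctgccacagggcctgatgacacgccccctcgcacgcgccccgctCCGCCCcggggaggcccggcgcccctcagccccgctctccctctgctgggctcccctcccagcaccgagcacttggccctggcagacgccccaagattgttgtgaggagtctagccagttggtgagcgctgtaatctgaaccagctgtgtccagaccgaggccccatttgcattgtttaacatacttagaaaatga
Efemp2: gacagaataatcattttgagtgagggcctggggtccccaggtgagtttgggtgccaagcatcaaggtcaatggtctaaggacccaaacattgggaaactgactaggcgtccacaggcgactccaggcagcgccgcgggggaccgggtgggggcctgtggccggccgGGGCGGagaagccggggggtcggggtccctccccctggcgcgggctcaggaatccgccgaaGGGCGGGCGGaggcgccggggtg
Efemp1: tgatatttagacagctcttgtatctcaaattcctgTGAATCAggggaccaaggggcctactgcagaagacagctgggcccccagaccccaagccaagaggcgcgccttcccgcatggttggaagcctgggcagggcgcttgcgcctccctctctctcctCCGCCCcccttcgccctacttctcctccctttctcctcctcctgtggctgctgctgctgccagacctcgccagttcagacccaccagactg
The GC box was present in all 4 of these windows and in none of the other 3 held (Fbn1, Fbn2 and Mfap5), where 30.5% of all 33469 RefSeq promoter windows of this length had it. Fbln2 had 3 matches, Efemp2 had 3, of which a pair overlap each other, and Fbln5 and Efemp1 had 1 each. G and C made up 61.2% to 68.0% of these 4 windows, against a median of 51.2% over all windows. Without a GC box, Fbn1 held 71.2%, Fbn2 70.0% and Mfap5 51.6%. The loose AP-1 form was present in Efemp1 alone among the 7 windows, as TGAATCA, with 6.34% of all windows having the loose form. TGACTCA and TGAGTCA, the forms with C or G at N, were in none of the 7. TATAAA was in 0 of the 7 (12.9% of all windows), CCAAT in Efemp2 and Mfap5 (34.0%) and CAGACA, which holds the core bound by Smad proteins, in Fbn1 alone (17.2%), each searched on both strands. A match describes letters in the window and not a bound site.

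Elastin and the fibrillins form the core and the scaffold of the fibre. Eln had 3.87, 2.78 and 4.23 FPKM (fragments scaled to gene length and library depth) in resveratrol libraries 1, 2 and 3, against 8.66, 6.65 and 5.32 FPKM in control libraries 1, 2 and 3. Every resveratrol library was below every control library, and control 1 was highest. The log2 fold change was -0.94 ± 0.22 (moderated standard error, n = 3 per group), with an edgeR adjusted p of 0.125 and a DESeq2 adjusted p of 0.00391 (0.000585 to 0.0606 over 9 further DESeq2 fits). The DESeq2 call was lost in 1 of those fits, that of the Oct libraries alone.

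Fbn1, which encodes fibrillin-1, the main fibrillin of adult tissue, had 18.7, 10.2 and 14.8 FPKM in resveratrol, against 20.1, 20.2 and 14.9 FPKM in control. The groups overlapped, since resveratrol 1 lay above control 3, and the log2 fold change of -0.35 ± 0.23 did not pass in either tool (edgeR adjusted p = 0.430, DESeq2 adjusted p = 0.430, 0.109 to 0.808 over its further fits). Fbn2, which encodes fibrillin-2, a fibrillin most abundant in development, had 0.810, 0.477 and 0.684 FPKM in resveratrol, against 2.62, 1.28 and 0.581 FPKM in control. Control 1 and control 2 were above all resveratrol libraries and control 3 was below resveratrol 1 and 3, so the groups overlapped. Its log2 fold change of -1.20 ± 0.50 had an edgeR adjusted p of 0.250 and a DESeq2 adjusted p of 0.0966 (0.00109 to 0.521 over its further fits). Without control 1 the edgeR log2 fold change was -0.51 and the DESeq2 adjusted p 0.521, and without control 3 they were -1.58 and 0.00109. Within a library, Fbn2 was at 4.34% to 4.67% of the Fbn1 level in FPKM in resveratrol and at 13.0%, 6.36% and 3.89% in control 1, 2 and 3, so the 2 ranges overlapped through control 3. The FPKM ratio of Eln to Fbn1 was 0.207 to 0.285 in resveratrol and 0.330 to 0.430 in control, without overlap.

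Microfibril-associated proteins spanned the range of levels. Mfap4, which encodes a fibrinogen-domain protein that binds fibrillin and tropoelastin, was the most abundant of the 10, at 111, 133 and 106 FPKM in resveratrol libraries 1, 2 and 3, against 218, 178 and 138 FPKM in control. Resveratrol 2 and control 3 lay closest to each other, and the groups did not overlap. The log2 fold change was -0.63 ± 0.17, with an edgeR adjusted p of 0.145 and a DESeq2 adjusted p of 0.0219 (0.000381 to 0.247 over its further fits). The DESeq2 call was kept without resveratrol 2 and without control 3 and was lost when any other single library was left out. Mfap5, which encodes a small glycoprotein of microfibrils also called MAGP-2, was scarce, with 18, 7 and 11 counts in resveratrol and 9, 20 and 45 counts in control. At 0.312 ± 0.143 FPKM in resveratrol and 0.644 ± 0.468 FPKM in control (SD, n = 3 each), its means differed by less than the control SD. Control 3 was the highest library for this gene, and the log2 fold change was -1.05 ± 0.59 (edgeR adjusted p = 0.400), or -0.31 without control 3.

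The fibulins with several anaphylatoxin-like modules, fibulin-1 and fibulin-2, are found in basement membranes as well as on elastic fibres. Fbln2 had 7.99, 8.16 and 13.9 FPKM in resveratrol libraries 1, 2 and 3, against 29.9, 23.8 and 19.1 FPKM in control. The highest resveratrol library was below the lowest control library. The log2 fold change was -1.30 ± 0.24, the largest in size of the 10, with an edgeR adjusted p of 0.1 and a DESeq2 adjusted p of 5.19e-05. DESeq2 called Fbln2 in all 9 other fits that were run with it (adjusted p of 1.82e-10 to 0.00717), among them each of the 6 that left out a single library, and edgeR in none of its fits (adjusted p of 0.0807 to 0.280 over the edgeR alternatives). Fbln1 had 16.0, 14.5 and 25 FPKM in resveratrol, against 25.3, 35.8 and 24.2 FPKM in control. Resveratrol 3 was above control 3, so the groups overlapped, and the log2 fold change of -0.64 ± 0.22 passed in neither tool (edgeR adjusted p = 0.200, DESeq2 adjusted p = 0.0855, 0.00165 to 0.444 over its further fits). Without resveratrol 3 DESeq2 called Fbln1. Within a library the FPKM ratio of Fbln2 to Fbln1 was 0.500 to 0.562 in resveratrol and 0.663 to 1.18 in control, without overlap.

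The group means of the short fibulins did not share a direction. Fbln5, whose loss in mice leaves elastic fibres fragmented, had 26.9, 30.8 and 26.2 FPKM in resveratrol, against 38.1, 38.7 and 30.4 FPKM in control. Resveratrol 2 and control 3 were almost level: in TMM-scaled CPM they stood at 82.3 and 82.4, without overlap, whereas in FPKM resveratrol 2 was the higher. The log2 fold change was -0.37 ± 0.12 (edgeR adjusted p = 0.172, DESeq2 adjusted p = 0.1, 0.0127 to 0.459 over its further fits), and DESeq2 called it in 1 further fit, without control 3. Efemp2, which encodes fibulin-4, a protein that mice need to crosslink elastin, had 12.4, 12.1 and 13.0 FPKM in resveratrol, against 13.7, 21.6 and 15.8 FPKM in control. The resveratrol libraries lay close together and below all controls, of which control 2 stood highest. Its log2 fold change was -0.46 ± 0.16 (edgeR adjusted p = 0.193, DESeq2 adjusted p = 0.123, 0.0231 to 0.444 over its further fits), and DESeq2 called it in 1 further fit, without control 1. Efemp1, whose product fibulin-3 is abundant in the eye, had 82.5, 63.6 and 45.5 FPKM in resveratrol libraries 1, 2 and 3, against 48.6, 56.6 and 50.3 FPKM in control. Resveratrol 1 and 2 were above all controls and resveratrol 3 below all of them, so the resveratrol group held both ends of the range. The log2 fold change of 0.29 ± 0.21 passed in neither tool (edgeR adjusted p = 0.477, DESeq2 adjusted p = 0.448). Without resveratrol 3 the DESeq2 adjusted p was 0.0465, the lowest of a range up to 0.985 over its further fits. Without resveratrol 1 the edgeR log2 fold change was 0.05 and the DESeq2 adjusted p 0.905, so the higher mean rested largely on that library. The FPKM ratio of Efemp1 to Fbln5 was 1.74 to 3.06 in resveratrol and 1.28 to 1.65 in control, without overlap. The within-library ratios were chosen after the values were seen and were not tested.

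**Figure D2:**
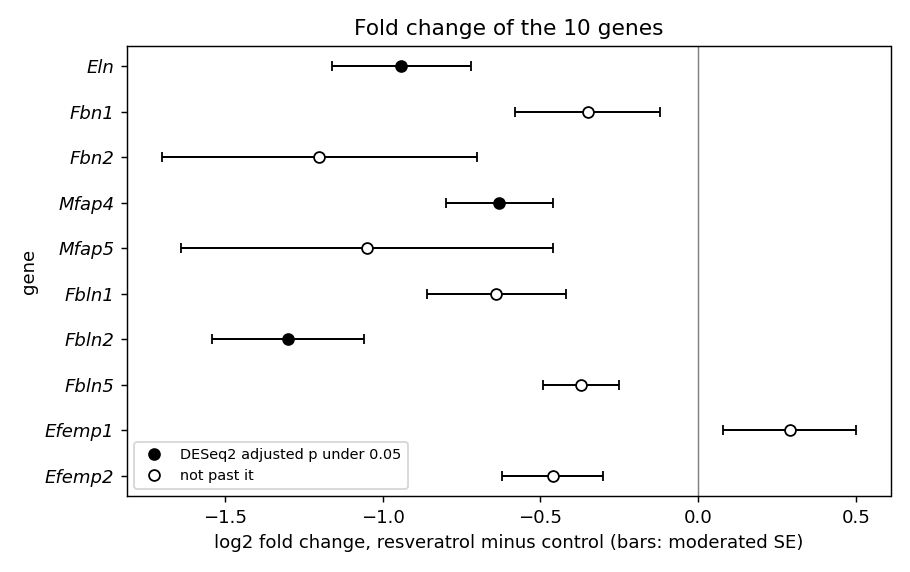
Log2 fold change of the 10 genes (resveratrol minus control, edgeR) with the moderated standard error as bars, and filled points where the DESeq2 adjusted p was under 0.05. Eln, Mfap4 and Fbln2 are filled, Fbn2 and Mfap5 have the widest bars, and Efemp1 is the only gene to the right of 0.

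Ordered by mean FPKM over the 6 libraries, the genes ran from Mfap4 (147) over Efemp1 (57.9), Fbln5 (31.8), Fbln1 (23.5), Fbln2 (17.1), Fbn1 (16.5), Efemp2 (14.8), Eln (5.25) and Fbn2 (1.08) to Mfap5 (0.478). The ranges over libraries did not overlap between Mfap4 and Efemp1, Efemp1 and Fbln5, Efemp2 and Eln, or Eln and Fbn2. The neighbours from Fbln5 down to Efemp2, and Fbn2 with Mfap5, had overlapping ranges. Fbln2 was below Fbn1 in all 3 resveratrol libraries and above it in all 3 controls.

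In TMM-scaled CPM the groups did not overlap for 5 of the 10 genes, all lower in resveratrol (Eln, Fbln2, Fbln5, Efemp2 and Mfap4), where 14.4% of all genes tested were lower without overlap and 12.2% higher. On library totals and in FPKM the count was 4, without Fbln5, and the share of all genes was not taken on those scales. By library, 4 genes were highest in control 1, 4 in control 2, 1 in control 3 (Mfap5) and 1 in resveratrol 1 (Efemp1). Resveratrol 2 held the lowest value of 7 genes and resveratrol 3 of the other 3. The median deviation of the 10 genes from their mean log2 CPM was -0.19, -0.65 and -0.28 in resveratrol 1, 2 and 3 and 0.31, 0.43 and 0.037 in control 1, 2 and 3, so control 3 was again nearest to the resveratrol libraries. Without control 3 the groups did not overlap for 8 of the 10 genes, where 21.1% of all genes tested were lower without overlap, and DESeq2 called 5 (Fbn2, Eln, Fbln2, Fbln5 and Mfap4), where it called 7.15% of all genes in that fit. DESeq2 called 2, Eln and Fbln2, without resveratrol 1 or without control 2, where it called 3.73% and 2.74% of all genes. With resveratrol 2, resveratrol 3 or control 2 left out, 4 of the 10 were lower in edgeR at p under 0.05 before adjustment, where 9.29%, 10.1% and 8.22% of all genes were.

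**Figure D3:**
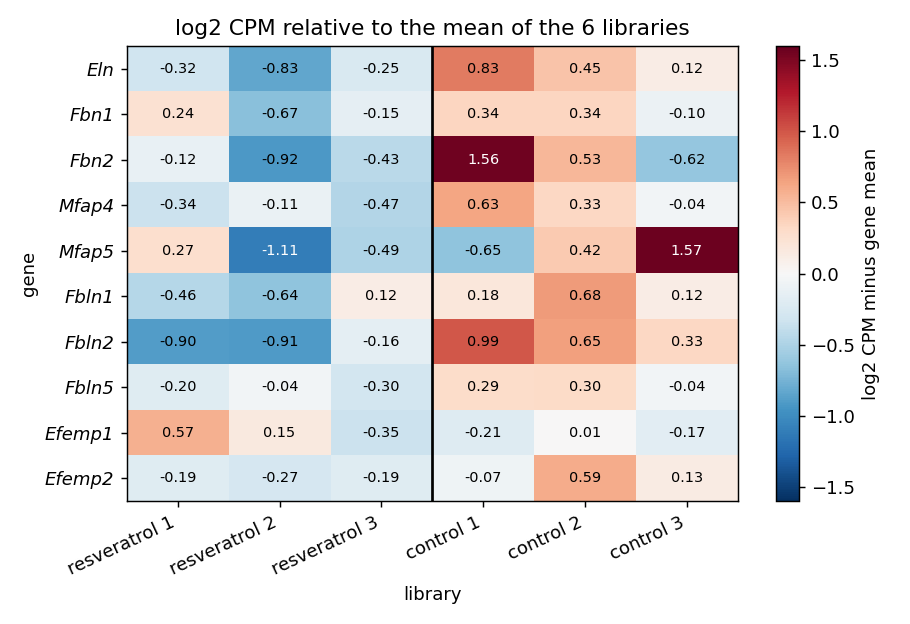
Log2 CPM (TMM-scaled) of each gene minus its mean over the 6 libraries, with the 3 resveratrol libraries left of the line and the 3 control libraries right of it. Most cells are blue on the resveratrol side, where Fbln2 is at -0.90 and -0.91 in libraries 1 and 2, and control 3 is pale for most genes except Fbn2 (-0.62) and Mfap5 (1.57).

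Within the 2 libraries whose descriptions end in Sep, which give no test, 8 of the 10 genes were lower in resveratrol than in control, with Efemp1 (log2 ratio 0.78) and Mfap5 (0.93) higher. In the Oct libraries alone, 2 per group, 9 were lower and Efemp1 differed by 0.0026. Fbln2 differed by -1.89 in the Sep pair and by -0.99 in the Oct libraries, Eln by -1.15 and -0.81, and Mfap4 by -0.96 and -0.43. In the Oct libraries edgeR called 0 of the 10 and DESeq2 called 1, Fbln2, of 404 genes it called in all. The median log2 fold change of all genes tested was -0.012 in the Oct libraries (edgeR). The shares of all genes that were lower in the Sep pair, or lower or called in the Oct libraries, were not taken.

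Other genes of elastic fibres were taken from 8 lists by role, 56 genes in all, of which 55 were listed and 50 tested. Of the 50, 40 had a lower mean in resveratrol and 10 a higher one, where 51.2% of all genes tested had a lower mean, and the median log2 fold change was -0.49. At an unadjusted edgeR p under 0.05, 22 were lower and 0 higher, where 11.7% of all genes were lower and 7.84% higher. After adjustment edgeR called 0 of them and DESeq2 16, all lower, where DESeq2 called 4.64% of all genes as lower. The counts for single lists that follow have the same all-gene shares as their background, 51.2% for a lower mean and 4.64% for a lower DESeq2 call. All 10 tested microfibril and elastin-binding genes had lower means (median -0.74), and DESeq2 called 4. Among them were Mfap2, the microfibril-associated protein MAGP-1, at 11.1 FPKM in resveratrol and 21.5 FPKM in control (log2 fold change -0.97 ± 0.23), and Bgn, the proteoglycan biglycan, at 584 FPKM in resveratrol and 882 FPKM in control (-0.61 ± 0.17). Dcn, the proteoglycan decorin, was at 913 FPKM in resveratrol and 952 FPKM in control and differed by less than its standard error (-0.071 ± 0.21).

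Of the 5 lysyl oxidase genes, whose enzymes crosslink elastin and collagen, 3 had lower means and DESeq2 called 2, Loxl1 (-0.54 ± 0.13) and Loxl2 (-0.67 ± 0.091), against 51.2% and 4.64% of all genes. Lox was at 62.8 FPKM in resveratrol and 61.5 FPKM in control (0.020 ± 0.20). The 4 latent TGF-beta binding proteins, relatives of the fibrillins, had a median of 0.013 and none was called. In that family Ltbp4 was at 41.4 FPKM in resveratrol and 38.5 FPKM in control, Ltbp3 at 23.0 FPKM in resveratrol and 23.8 FPKM in control, and Ltbp1 differed by 0.39 ± 0.20 and Ltbp2 by -1.04 ± 0.61. Of 8 ADAMTS and ADAMTS-like genes tied to microfibrils, 7 had lower means (median -0.31) and DESeq2 called 1, the protease gene Adamts10 (-0.46 ± 0.095). Adamtsl4 differed by -0.30 ± 0.084 and Adamtsl5 by -0.23 ± 0.24.

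Elastin-degrading proteases had lower means in 6 of 7 tested genes (median -0.65), and DESeq2 called 5, where 51.2% of all genes had a lower mean and 4.64% were called lower. Mmp9, a gelatinase, differed by -1.33 ± 0.26, Mmp14, a membrane metalloproteinase, by -0.65 ± 0.11 and Mmp2, a gelatinase, by -0.62 ± 0.16. Ctsl, the lysosomal protease cathepsin L, was at 1762 FPKM in resveratrol and 1736 FPKM in control. Elane, Prtn3 and Mmp7 were listed but were filtered out for low counts. The genes of TGF-beta and BMP ligands had lower means in 5 of 6 tested (median -0.38), with DESeq2 calling 2, Tgfb2 (-0.73 ± 0.11) and Tgfb3 (-0.65 ± 0.18), and Tgfb1 differed by -0.52 ± 0.17. Of 7 integrin genes for microfibril receptors, 4 had lower means (median -0.046) and DESeq2 called 2, Itga5 (-0.76 ± 0.15) and Itgb3 (-1.21 ± 0.30). The most abundant, Itgb1 (0.068 ± 0.090) and Itgav (-0.046 ± 0.089), differed by less than their standard errors. The 3 genes of the elastin receptor complex had a median of -0.16 and none was called, with Ctsa at -0.22 ± 0.070, Neu1 at -0.16 ± 0.13 and Glb1 at -0.097 ± 0.098.

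**Figure D4:**
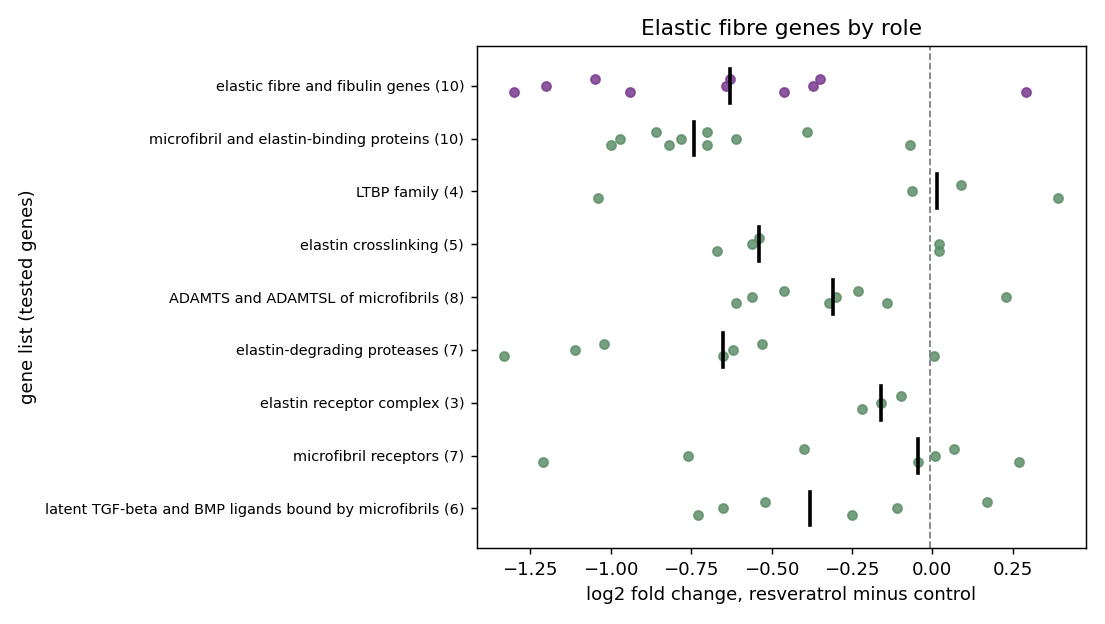
Log2 fold change (resveratrol minus control, edgeR) of every tested gene of the 10 described and of 8 further lists by role, with list medians as black bars and the median of all genes tested as a dashed line. The latent TGF-beta binding protein and integrin receptor lists have medians near the dashed line (0.013 and -0.046), and the lowest median, -0.74, is that of microfibril and elastin-binding proteins.

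Markers of several cell types had lower summed levels in the resveratrol group, as did the 10 genes. The order of single libraries differed between lists. Blood endothelial markers were lowest in resveratrol 1 (307.1 CPM), where the sum of the 10 genes was the highest of the resveratrol group (804.8 CPM). The summed CPM of the 10 genes was 679.5 to 804.8 in resveratrol and 805.5 to 1074 in control, where the highest resveratrol library (replicate 1) and the lowest control library (replicate 3) were nearly equal. All 7 fibroblast and myofibroblast markers had lower means (median log2 fold change -0.69), although Pdgfra differed by less than its standard error (-0.06 ± 0.22). Their summed level was 4881 to 7055 CPM in resveratrol and 8795 to 14735 CPM in control. Most of it came from the collagen genes Col1a1 and Col3a1, which gave 9242 and 3939 CPM in control 1. All 7 blood endothelial markers had lower means (median -0.73), with a summed level of 307.1 to 369.8 CPM in resveratrol and 439.2 to 648.6 CPM in control. Smooth muscle and pericyte markers had lower means in 5 of 6 (167.8 to 193.8 CPM in resveratrol, 197.6 to 287.9 CPM in control), with Cspg4 higher (log2 fold change 0.32). Macrophage markers were lower in 4 of 6 (176.5 to 212.4 CPM in resveratrol, 227.0 to 281.5 CPM in control), with Cd163 and Mrc1 higher (0.11 each). T cell markers were lower in all 5 tested (3.92 to 4.35 CPM in resveratrol, 6.33 to 15.7 CPM in control). Of all genes tested, 51.2% had a lower mean. No marker of these lists was at 0 in every library, and their part in the differences of the 10 genes was not tested.

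The summed level of keratocyte markers overlapped between the groups, at 14086 to 19624 CPM in resveratrol and 14827 to 16838 CPM in control. Most of it was Aldh3a1, which corneal epithelium also expresses, and the collagen-binding proteoglycan gene Lum was at 1272 FPKM in resveratrol and 1507 FPKM in control (-0.26 ± 0.14). Summed keratocyte markers were highest in resveratrol 1, where Aldh3a1 gave 14453 of 19624 CPM, and lowest in resveratrol 3. Efemp1 was highest and lowest in the same libraries. Of the tested markers, Aldh3a1, Angptl7, Thbs4 and Dcn were each highest in resveratrol 1, Kera in control 1 and Lum in control 2. The parallel with Efemp1 was picked after the values were seen and was not tested. Markers of sclera, cartilage and tendon, tissues next to or akin to the corneal rim, summed to 58.0 to 92.7 CPM in resveratrol and 56.8 to 171.5 CPM in control, and those of iris and pigment cells to 2.26 to 7.97 CPM in resveratrol and 2.16 to 11.0 CPM in control, with overlap in both. Conjunctival and lymphatic endothelial markers overlapped as well, at 5448 to 9219 and 134.4 to 193.0 CPM in resveratrol and at 7741 to 9350 and 132.9 to 187.5 CPM in control.

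**Figure D5:**
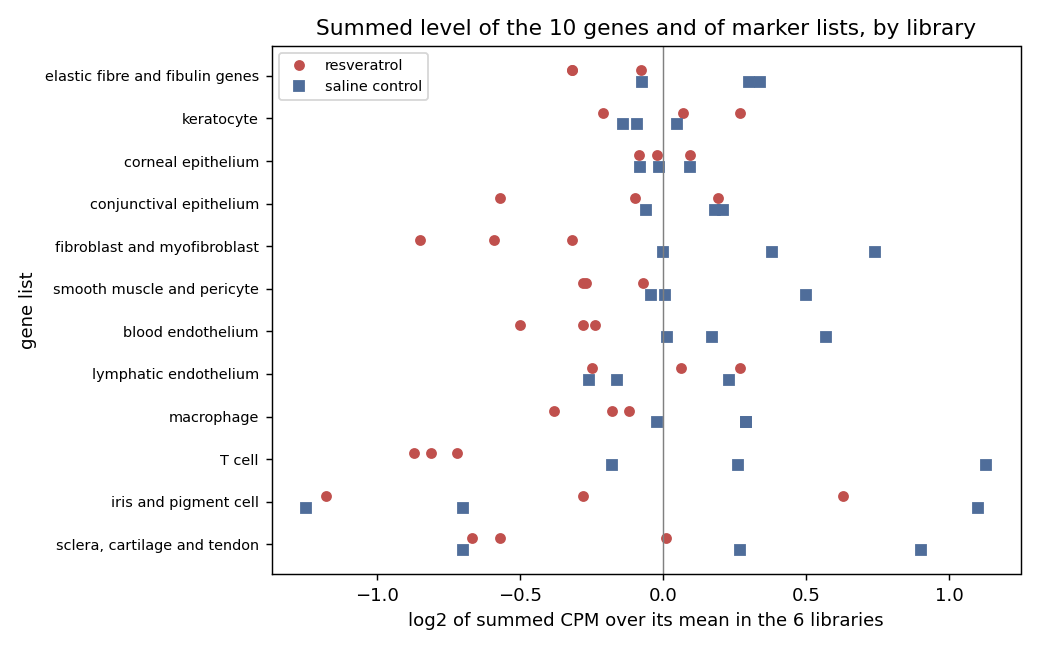
Log2 of the summed CPM of the 10 genes and of 11 marker lists in each library, relative to the mean of the 6 libraries, with resveratrol libraries as circles above control libraries as squares. Circles and squares separate for the fibroblast, smooth muscle, blood endothelium, macrophage and T cell lists, and for the 10 genes the highest circle and the lowest square nearly coincide (-0.076 and -0.075).

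RefSeq places an annotated long noncoding RNA over part of Fbn1, Fbn2, Eln and Fbln1. The overlap was taken from whole gene spans, without regard to exons or strand. None of these noncoding genes is in the count table under its RefSeq symbol, and whether counting used strand is not stated. Whether reads from them entered the counts of the protein-coding genes was not tested.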

How the data were processed

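Per the labels' protocols, corneal RNA was isolated with a fibrous-tissue kit and read as paired ends. The authors deposited raw gene counts and FPKM values for 17771 genes, and single-library FPKM files that equalled the table in 6 of 6 libraries. Named in the submitters' processing notes, without a stated use, are mRatBN7.2, DESeq2 and R 3.2.0. Aligner, counter, annotation and strand setting: not given in the sources used here. A separator is missing between 2 names of the count table's header, so each column was matched to its sample through the names. Over 11133 genes with at least 100 counts in every library, the log2 quotient of count and FPKM differed between libraries with an SD across genes of at most 3.54e-10, and pairing a library's counts with another library's FPKM gave an SD of at least 0.271. No 2 libraries agreed within sampling noise (chi-square over degrees of freedom between 32.7 and 96.5).

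Counts were filtered with filterByExpr (14213 genes left; those removed held 0.0237% of counts), normalised by TMM, then tested in edgeR 4.0.16 (quasi-likelihood, R 4.3.3) for resveratrol against control without covariates; p-values were adjusted over all genes by Benjamini-Hochberg, threshold 0.05. Standard errors come from limma 3.58.1 on log2 CPM (prior count 2, with trend). DESeq2 1.42.0 (independent filtering set for 0.05) was an alternative. An exact permutation test of 3 against 3 libraries cannot go below 0.1, so none was made. Total counts were 35068936 to 37460756, and counting error is relatively largest for Mfap5. The members, lists and tests were chosen with earlier results of these data known. Named genes were all 10 members, the 2 most abundant genes and the 2 with the smallest p of each role list, and the leading genes of marker lists. Elane, Prtn3 and Mmp7, and the genes named as called by a tool, fall outside this rule where they were picked by the filter or the call. So do further marker genes, named to show the spread within their list. Coordinates are given for the RefSeq promoter windows alone, in GRCr8, which is another build than that of the files. Of the marker lists, 1 is not reported here.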

Additional observations from a re-analysis of the deposited data

How the results depend on the processing

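Counts of genes past an adjusted p of 0.05 depended on the tool. With edgeR, other scaling factors, no filter, a stricter filter (at least 1 CPM in 3 libraries, which removed Mfap5), robust fitting, the ending (Sep or Oct) as covariate and the Oct libraries alone each gave 0 genes in all, 0 of the 10 and 0 of the role lists, as did limma voom, and limma on log2(FPKM + 0.1) or log2(FPKM + 1). Fits with 1 library left out gave 0 to 21 genes in all, 0 of the 10 and 0 to 1 of the role lists. The 21 came without control 3, and the other call was Mmp9 without resveratrol 2. DESeq2 gave 1007 genes in all, 3 of the 10 and 16 of the role lists. Further DESeq2 fits were added after seeing the data. Leaving out resveratrol 1, 2 or 3 gave 530, 642 or 826 genes in all, 2, 3 or 4 of the 10 and 11, 11 or 12 of the role lists. Leaving out control 1, 2 or 3 gave 623, 390 or 1041 genes in all, 3, 2 or 5 of the 10 and 12, 9 or 18 of the role lists. The same counts were with the Oct libraries alone 404, 1 and 8, and with the ending as a covariate 1111, 3 and 17. At an unadjusted p under 0.05 edgeR and limma gave 4 to 7 of the 10 as lower over the alternatives. With all libraries or with 1 left out, 8.22% to 11.7% of all genes were lower at that level in edgeR. The share was not taken for the other fits. Of 279 fold changes of the 10 genes under an alternative, 0 reversed, 29 passed the threshold where the result reported did not, all with DESeq2, and 250 stayed on the same side. The cause of the difference between the tools was not tested.

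No sign of pairing by replicate number was seen. Deviations from the group means of same-numbered libraries correlated at -0.00442, -0.0123 and -0.0225 across genes, which does not exclude a pairing. The labels give no shared litter or day, although the descriptions of both libraries numbered 1 end in Sep. With the replicate number as a block edgeR gave 0 genes in all, 0 of the 10 and 0 of the role lists, and DESeq2 gave 672, 3 and 15. With the block, 6 of the 10 were lower at an unadjusted edgeR p under 0.05. The share of all genes at that level was not taken for the block. No library correlated best with its own number.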

Other observations

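In resveratrol 1, the library with the highest Efemp1 level, some marker lists were at an end of their range. This was not particular to that library, since control 1 was at an end for other lists. Summed corneal epithelial (79920 CPM) and keratocyte (19624 CPM) markers were the highest of the 6 in resveratrol 1, and blood endothelial markers (307.1 CPM) the lowest. For corneal epithelial markers control 1 was nearly level, at 79786 CPM. Of the keratocyte sum in resveratrol 1, 14453 CPM was Aldh3a1, which corneal epithelium also expresses. Conjunctival epithelial markers, led by the keratin genes Krt13 and Krt4, summed to 5448 CPM in that library, the lowest of the 6, against 9219 CPM in the highest resveratrol library and 7741 to 9350 CPM in control. In control 1, fibroblast and myofibroblast (14735 CPM), blood endothelial (648.6 CPM) and T cell (15.7 CPM) markers were the highest of the 6. Lymphatic endothelial markers (132.9 CPM) were the lowest there. These lists and their part in the Efemp1 values were not tested.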
